A study of Mus musculus with 6 samples.

Results

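The wildtype retina of the newborn mouse was profiled here on its own, as a description of which genes gave signal on the array and how well separate pools agreed. The members were the 3 samples labelled wildtype, out of 6 samples in the series, and the other 3 were cyclin D1 -/- pools that served only to check the labels. Each sample was a pool of retinas dissected in saline from newborn mice, with RNA purified on RNeasy columns, copied into biotin-labelled antisense RNA through one round of amplification and hybridised to an Affymetrix mouse array. The labels used here do not state the strain, how many animals of which sex went into a pool, or whether pools came from separate litters. Every spread and p-value below therefore concerns these 3 pools only. No contrast between genotypes was made.

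The neural retina is built by multipotent progenitors that leave the cell cycle in a fixed but overlapping order. Ganglion cells, cones, horizontal cells and many amacrine cells are born before birth in the mouse, whereas most rods, the bipolar cells and the Müller glia are born or mature after it. A newborn retina therefore still holds a large layer of dividing progenitors beside young neurons, and its photoreceptors have not yet grown outer segments. Cyclin D1, encoded by Ccnd1, is the D-type cyclin that retinal progenitors chiefly use to pass through G1.

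Ccnd1 was read first because it checks the labels. Its brightest probe set gave deposited signals of 6469, 6355 and 6258 array units in wildtype pools 1, 2 and 3, and 318, 389 and 378 in the 3 cyclin D1 -/- pools. All 3 probe sets of Ccnd1 had every wildtype pool above every cyclin D1 -/- pool, so no label was contradicted. In the wildtype pools Ccnd1 ranked 24 among 18193 genes, and it ranked 23 in each pool taken alone.

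For each gene the brightest of its probe sets, by mean over the wildtype pools, was kept, which left 18193 named genes. Levels are given as deposited signals per pool and as log2(signal + 16) after quantile normalisation over the 3 arrays, with the SD over 3 pools. That normalisation gives the same set of values to each array, so the SD of the few brightest genes is limited by it. Probe sets differ in how well they bind their target: among the 9010 genes with several probe sets, the brightest and the dimmest differed by a median of 1.47 on the log2 scale. A rank below is therefore a rank of signal, not of transcript number.

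A yardstick for unexpressed genes was taken from 75 olfactory, vomeronasal and taste receptor genes, which act in the nose and tongue. Their 95th percentile, called the receptor level here, was 6.78, 6.38 and 7.15 on the log2 scale in pools 1, 2 and 3. In normalised units that is 93.8, 67.2 and 126. Deposited signals are on a somewhat different scale, so whether a dim gene exceeds the level was read on the log2 values. Each gene was tested against that level in limma's moderated one-sample test, with a two-sided Benjamini-Hochberg adjusted p under 0.05. The same level served every gene of a pool, so an error in it is shared by all tests. Of the 18193 genes 5541 (30.5%) were higher, 7162 were lower and 5490 were called neither way. The moderated SE of this test, also given below, hardly followed a gene's own spread. It was 0.33 for Actb, with an SD of 0.05 over pools, and 0.30 for Ntmt1, with an SD of 1.40. A call or a small p-value therefore does not show that the pools agreed on a gene. By plain count, 6371 genes (35.0%) exceeded the receptor level in 3 of 3 pools and 8016 in none. The median gene stood at 6.59 and the receptor genes' own median at 5.29. As a second gauge, 3 of 52 genes characteristic of other organs were called above the receptor level. These were Tff1, a secreted stomach peptide, at 387, 304 and 577 array units, Cela2a, a pancreatic elastase, and Pomc, a pituitary hormone precursor, so a call above this level does not by itself show expression.

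**Figure D1:**
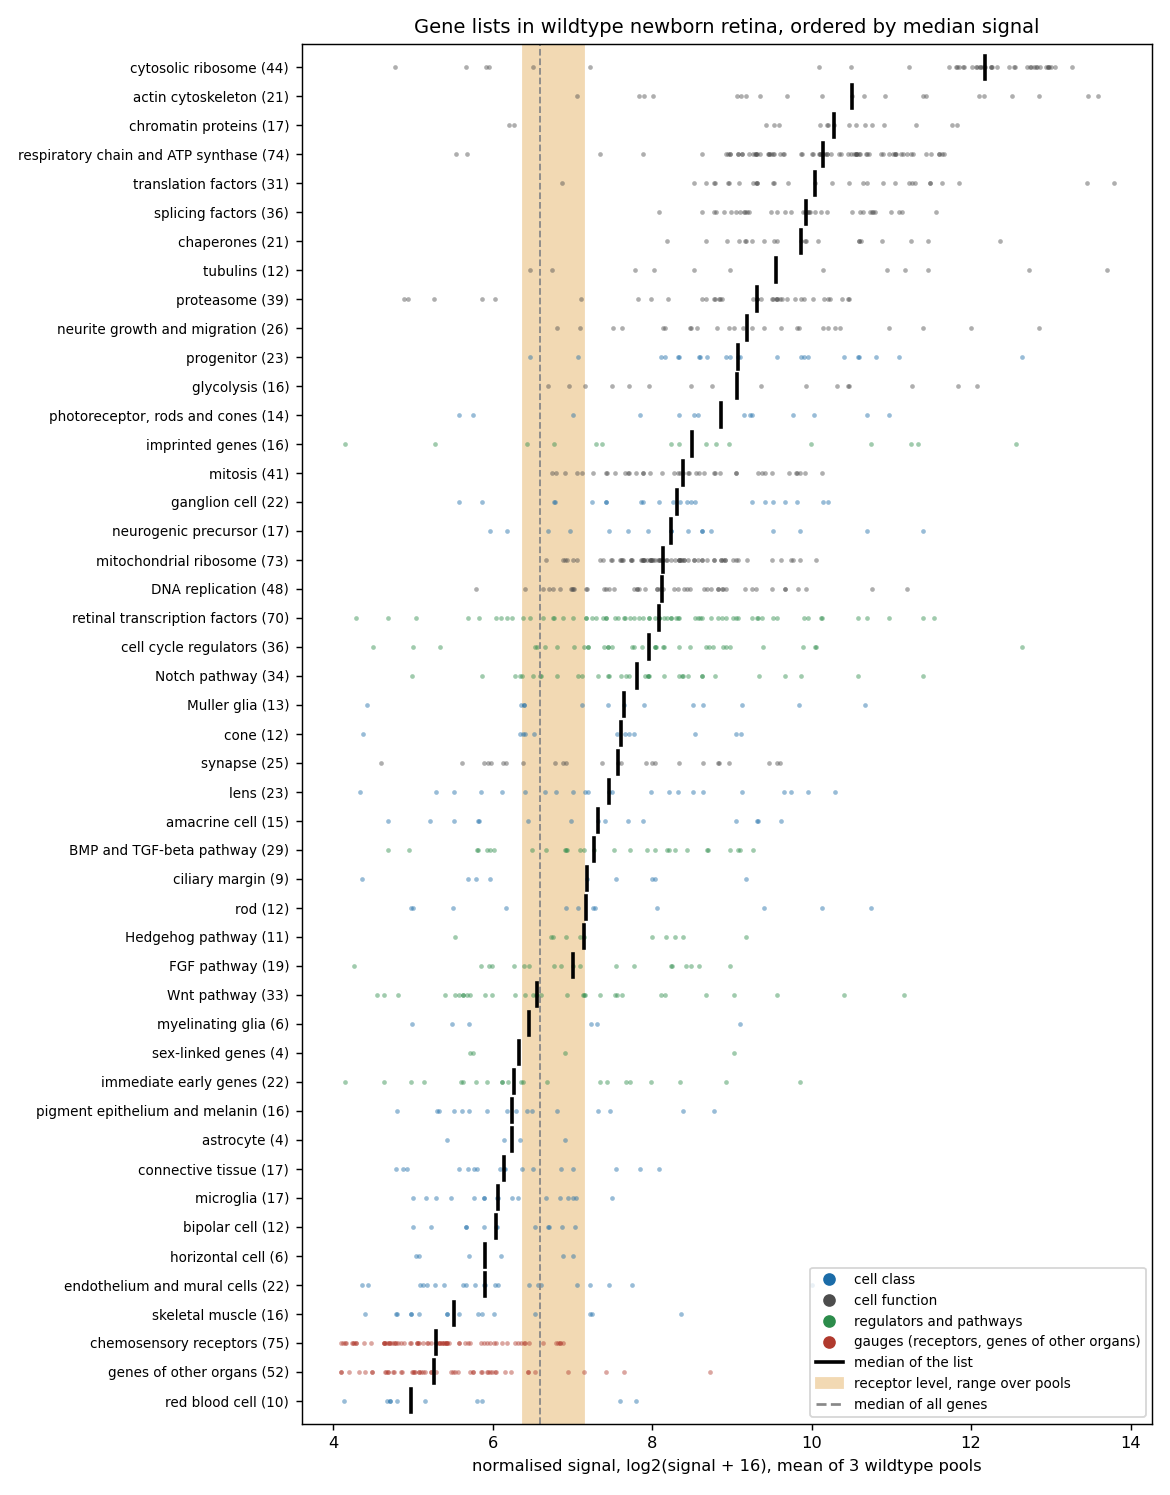
Normalised signal, log2(signal + 16) averaged over 3 wildtype pools, for every measured gene of 47 lists, ordered by list median (black bars; number of genes in brackets). The shaded band spans the receptor levels of the 3 pools, 6.38 to 7.15, and the dashed line is the median of all genes, 6.59. By list median the cytosolic ribosome leads at 12.17 and retinal progenitor genes lie at 9.08. The medians of the bipolar and horizontal cell lists lie below the band, though their brightest members lie within it.

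The brightest genes were those of protein synthesis and the cytoskeleton. Eef1a1, the elongation factor that brings aminoacyl-tRNA to the ribosome, led with 14421, 13984 and 12649 array units (13.79 ± 0.11). Tuba1a, the alpha-tubulin of growing neurons, followed with 13563, 13195 and 12985, and Actb, cytoplasmic beta-actin, with 13133, 12136 and 12020. Tmsb10, an actin-binding peptide, and Tpt1, a growth-related protein of translating cells, completed the first 5. The SD of each was 0.11 or less on the log2 scale. Neighbours in this order such as Tmsb10 at 13.47 ± 0.03 and Tpt1 at 13.45 ± 0.03 were not separated beyond their spread.

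Of the 30 brightest genes, 17 encoded ribosomal proteins. The others included Stmn1, a microtubule-destabilising protein (12.85 ± 0.08), Tubb5, a beta-tubulin (12.73 ± 0.03), Nnat, an imprinted membrane proteolipid of developing brain (6326, 5485 and 6070 array units), and Actg1. Membership was stable between pools: 27 of the 30 were among the first 30 in every pool, and 33 genes made the first 30 of any pool. The 30 together held 7.38%, 7.35% and 7.39% of the summed normalised signal in pools 1, 2 and 3. The first 1000 genes held 40.9%, 40.7% and 40.6%. Because the normalisation gives each array the same set of values, the likeness of these shares between pools is largely built in. Probe sets whose names end in _x_at or _s_at, which can bind several related transcripts, read 13 of the 30.

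**Figure D2:**
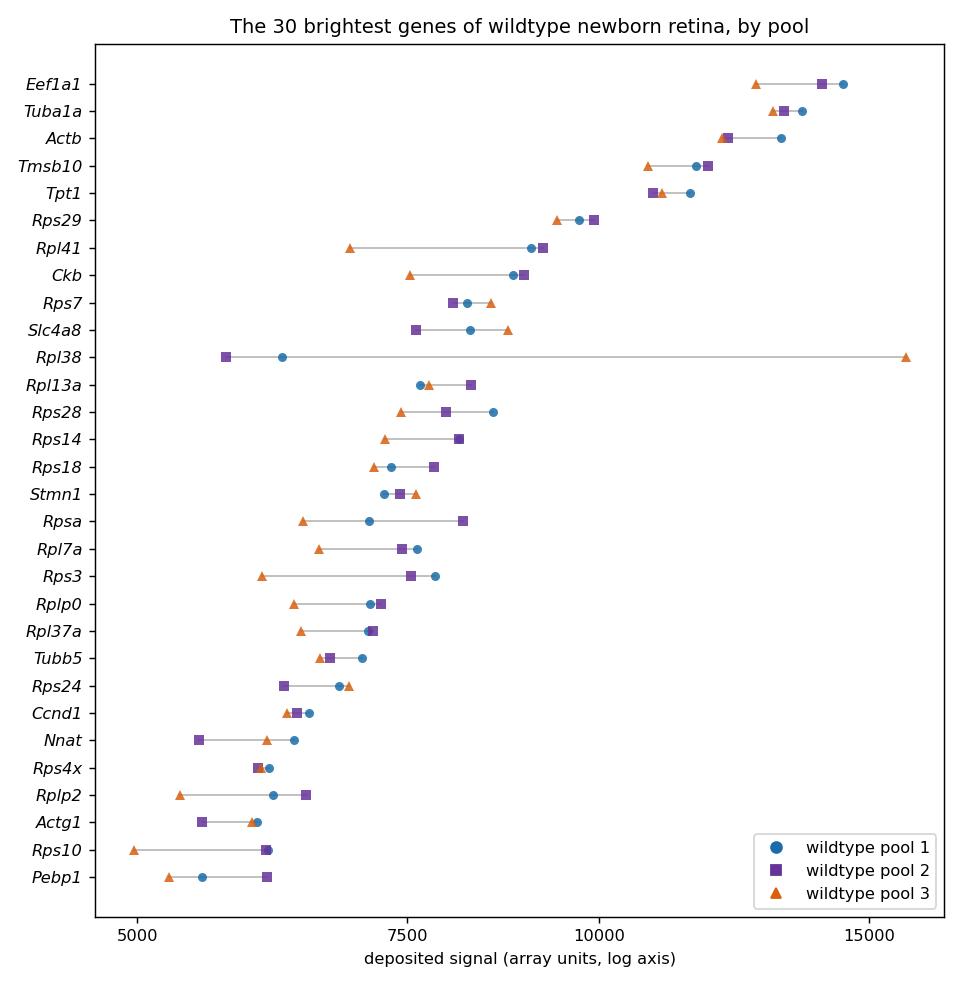
Deposited signal (array units, log axis) of the 30 brightest genes in wildtype pools 1 (circles), 2 (squares) and 3 (triangles), ordered by mean normalised signal. Most genes keep their 3 points close together, and Rpl38 stands apart, with 6210 and 5711 in pools 1 and 2 and 15852 in pool 3.

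Rpl38, a protein of the large ribosomal subunit, was the one member of this group that the pools did not agree on. It read 6210, 5711 and 15852 array units and so ranked 25, 29 and 1 in pools 1, 2 and 3. It was read by 1 named probe set, of the _x_at kind, so no second measurement was at hand.

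The 10 brightest genes outside every list were Ckb, Slc4a8, Pebp1, Ran, H2az2, Jund, Selenow, Ybx1, Ywhae and Nrep. Ckb, the brain creatine kinase, read 8787, 8941 and 7528 array units, and Pebp1, a kinase inhibitor, read 5509, 6074 and 5244. Slc4a8, a sodium bicarbonate transporter, read 8234, 7598 and 8725 on its brightest probe set (12.99), whereas the mean of its next brightest probe set was 6.90. Its place rests on that 1 probe set.

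Housekeeping functions filled the top of the range as groups. For the cytosolic ribosome, 38 of 44 measured genes were called above the receptor level, and the same number were in the brightest 10% of genes. The list's median was 12.17, at percentile 99.8, and its summed signal was 6.34%, 6.34% and 6.28% of the total. Rps29 (9699, 9929 and 9387 array units), Rpl41 and Rps7 led it. The 6 genes not called were Rps25, Rps6, Rpl14, Rps27, Rpl12 and Rps16. They were read by probe sets between 4.77 (Rps16) and 7.22 (Rps25), which shows what those probe sets gave and not that these subunits were missing.

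Energy supply was read nearly as evenly. Of 74 genes of the respiratory chain and ATP synthase, 71 were called above the receptor level and 70 were in the brightest 10%, with a median of 10.14. Atp5g3, a subunit of the ATP synthase ring, read 3217, 3217 and 3170 array units, Cox6b1, a cytochrome oxidase subunit, read 2964, 3398 and 3150, and Cox7a2 read 2926, 2996 and 3358. The glycolysis list had 13 of 16 genes called. Pgk1, phosphoglycerate kinase, led it with 3978, 4308 and 4457, then Ldha, which makes lactate, with 3663, 3932 and 3322, and Pkm, pyruvate kinase, with 2446, 2465 and 2371. Hk2, the muscle-type hexokinase, was not called, at 86.5, 92.5 and 84.4, while Hk1, the brain-type enzyme, was, at 402, 359 and 497.

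Translation factors had 30 of 31 genes called, splicing factors 36 of 36 and chaperones 21 of 21. Hspa8, the constitutive heat shock chaperone, read 5327, 5257 and 5171 array units, Hsp90aa1 read 2774, 2569 and 3048, and Ppib, a prolyl isomerase of the endoplasmic reticulum, read 2648, 2305 and 2294. Among splicing factors Hnrnpab was brightest by its selected probe set but uneven between pools, at 2337, 1735 and 6112, and Snrpg, a core protein of the spliceosome, followed at 2202, 2388 and 2108. Hnrnpk, an RNA-binding protein, was close behind at 2042, 1964 and 2564. In the proteasome list 33 of 39 genes were called, with Psma6, Psmb4 and Psmb6 at 10.47, 10.45 and 10.38. Its immune subunits Psmb8 and Psmb9 were among the dimmest, at 4.94 and 4.89. The mitochondrial ribosome, with 65 of 73 genes called, lay lower than the cytosolic one, at a median of 8.14, and Mrpl52, Mrps33 and Mrpl57 led it at 10.06, 9.85 and 9.77.

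Actin, tubulin and chromatin genes stood beside them. The actin list had 20 of 21 genes called and the tubulin list 10 of 12, from Tuba1a down to Tuba8 and Tubb1, which were not called. Among 17 chromatin proteins 15 were called, led by Hmgn1, a nucleosome-binding protein (3839, 3407 and 3566 array units), H2az1, a variant histone (2789, 3357 and 4395), and Ptms, parathymosin (2801, 2661 and 2138). The 2 that were not called, H3f3a and H3f3b, encode a replacement histone and were each read by 1 probe set, at 6.20 and 6.27.

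The promoters of 3 bright genes are shown for the letters near the start site: the ribosomal protein genes Rpl38 and Rps18 (7317, 7806 and 7136 array units) and the beta-tubulin gene Tubb2a (2302, 2363 and 2160). Sequences are from the RefSeq table for GRCm38.p6 and run from 100 bases before the annotated start into the first 5 transcribed bases, 5′ to 3′ on the gene's strand. Ribosomal protein mRNAs are known to begin with a C followed by pyrimidines, the 5′ terminal oligopyrimidine tract, and the capitals in the first pair mark a C followed by 4 of C or T that begins at the start or within 5 bases of it on the gene's strand. The capitals in the tubulin promoter mark TATAAA on the gene's strand, which Tubb2a alone held among the 9 tubulin promoters in the table. Rpl38 lies at chr11:114668480-114668584 on the + strand, Rps18 at chr17:33955661-33955765 on the - strand and Tubb2a at chr13:34078004-34078108 on the - strand.
Rpl38: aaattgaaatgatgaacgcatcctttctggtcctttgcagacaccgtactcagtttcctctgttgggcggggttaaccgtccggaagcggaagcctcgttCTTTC
Rps18: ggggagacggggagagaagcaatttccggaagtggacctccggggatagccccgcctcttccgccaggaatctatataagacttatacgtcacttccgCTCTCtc
Tubb2a: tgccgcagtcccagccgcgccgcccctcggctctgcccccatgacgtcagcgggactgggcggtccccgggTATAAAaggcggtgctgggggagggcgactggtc

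Such a tract was found in 19 of 39 ribosomal protein promoters in the table (48.7%), against 2855 of 14368 promoters of all measured genes (19.9%). The tract was not particular to the ribosome: it was in 7 of 9 tubulin promoters (77.8%), 18 of 62 respiratory chain promoters (29%) and 32 of those of the 100 brightest genes. TATAAA between 40 and 20 bases before the start was in 0 of the 39, in 1 of the 9 tubulin promoters and in 2.55% of all promoters. A match to letters is a description of the sequence and not of a bound factor, and start sites are those of the annotation.

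Genes of the dividing cell were among the brighter genes of the array. Of 41 genes of mitosis, 35 were called above the receptor level and 35 exceeded it in 3 of 3 pools, with a median of 8.39. Top2a, the topoisomerase that untangles sister chromatids, read 1201, 1020 and 1095 array units. Bub3, a spindle checkpoint protein, read 1032, 853 and 969, Cdc20, an activator of the anaphase-promoting complex, 995, 903 and 839, and Mki67, a coat protein of mitotic chromosomes, 857, 848 and 929. The pools differed little in each, and the dimmest members, Ttk, Anln and Kif20a, lay between 6.74 and 6.90 and were not called.

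DNA replication had 35 of 48 genes called and a median of 8.12. Pcna, the sliding clamp of the polymerases, read 2211, 2246 and 2506 array units. Of the replicative helicase, Mcm7 read 1723, 1592 and 1860, Mcm6 1000, 805 and 884 and Mcm5 706, 784 and 634. Tyms, thymidylate synthase, was the dimmest of the list at 36.3, 34.0 and 48.2.

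Among 36 cell cycle regulators, 24 were called above the receptor level, and Ccnd1 stood far above the rest at 12.64 ± 0.03. The next were Cdk1, the mitotic kinase (1160, 874 and 1136 array units), Ccna2, cyclin A (1052, 984 and 1093), and Cdk4, the kinase that cyclin D activates (1053, 940 and 821). The other D-type cyclins were near the receptor level: Ccnd2 read 137, 117 and 94.6 and Ccnd3 read 157, 136 and 97.7, with limma adjusted p of 0.446 and 0.246 against it. The cyclin E gene Ccne1 was called but uneven, with 229, 192 and 653.

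Brakes of the cycle were read as well. Cdkn1b, which encodes the inhibitor p27Kip1, read 689, 647 and 614 array units, Cdkn2c read 501, 422 and 495 and Cdkn1c read 444, 458 and 301. Cdkn2a and Cdkn2b, inhibitors linked to senescence, were at 5.00 and 4.50. In the Myc family Mycn was bright at 483, 430 and 547 and Mycl was called at 374, 386 and 265, whereas Myc itself lay below the receptor level at 25.2, 28.1 and 19.4. Of the E2F factors, which switch on S phase genes, E2f1 was the brightest at 435, 279 and 598.

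The promoters of the mitotic genes are shown because they hold a known pair of elements, CCAAT boxes and the cell cycle homology region with the letters TTTGAA. Capitals mark CCAAT or its reverse complement ATTGG, and TTTGAA or its reverse complement TTCAAA. Top2a lies at chr11:99024185-99024289 on the - strand and Bub3 at chr7:131560270-131560374 on the + strand.
Top2a: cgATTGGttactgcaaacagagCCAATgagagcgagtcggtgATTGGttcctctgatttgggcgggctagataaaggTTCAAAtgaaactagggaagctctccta
Bub3: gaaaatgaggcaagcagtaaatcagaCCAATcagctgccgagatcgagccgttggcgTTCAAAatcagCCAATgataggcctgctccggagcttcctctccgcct

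In the 200 bases before the start, CCAAT on either strand was found in 26 of 35 mitotic promoters (74.3%) and in 31.7% of all promoters. TTTGAA on either strand was in 12 of 35 (34.3%) against 8.85%, and both were in 11 of 35 (31.4%) against 2.85%. Replication genes differed from this: CCAAT was in 22 of 40 (55%) and TTTGAA in 4 of 40 (10%). The E2F-type letters TTGGCGC or TTCCCGC, on either strand, were in 12 of the 40 (30%), in 2 of the 35 mitotic promoters and in 7.31% of all promoters.

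Among cell classes, retinal progenitors gave the brightest list. Of its 23 measured genes 21 were called above the receptor level and 17 were in the brightest 10%, with a median of 9.08 at percentile 94.2. In a bulk sample fewer cells of a type and less RNA per cell cannot be told apart, here and for every cell class below. After Ccnd1 came Fabp7, the fatty acid binding protein of neural progenitors, with 2591, 2221 and 1781 array units. Vim, the intermediate filament vimentin, read 1667, 1687 and 2011, and Crym, a thyroid hormone binding protein, read 1540, 1547 and 1463.

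Several transcription factors of progenitors were bright. Hes5, a Notch target that holds back neurogenesis, read 1513, 1632 and 1394 array units. Pax6, the eye field homeobox factor, read 892, 827 and 1216, Lhx2 read 883, 1008 and 955, and Sox2 read 765, 740 and 720. The pools agreed on these within an SD of 0.27 on the log2 scale. The homeobox genes Six6, Rax and Six3 lay between 8.60 and 9.08. Hmga2 (7.07 ± 0.15) and Sox9 (81.1, 83.6 and 57.9) were not called.

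Precursors on the way out of the cycle were also well represented, with 13 of 17 genes called and a median of 8.24. Hes6, which opposes Hes1, led with 2949, 2824 and 2355 array units, and Neurod1, a bHLH factor of amacrine cells and photoreceptors, followed with 1702, 1625 and 1583. Btg2, an antiproliferative gene, read 1128, 801 and 806 and Neurod4 read 668, 698 and 809. The Notch ligands Dll1 and Dll3 lay at 8.63 and 8.45. Atoh7, the bHLH factor that makes progenitors competent to form ganglion cells, read 356, 365 and 182, lower in pool 3 than in the others, and its mean was 1.48 (SE 0.30) above the receptor level on the log2 scale (limma adjusted p = 3.59e-06). Olig2, which marks neurogenic progenitors, stayed under the receptor level in all pools at 64.4, 62.6 and 46.2.

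**Figure D3:**
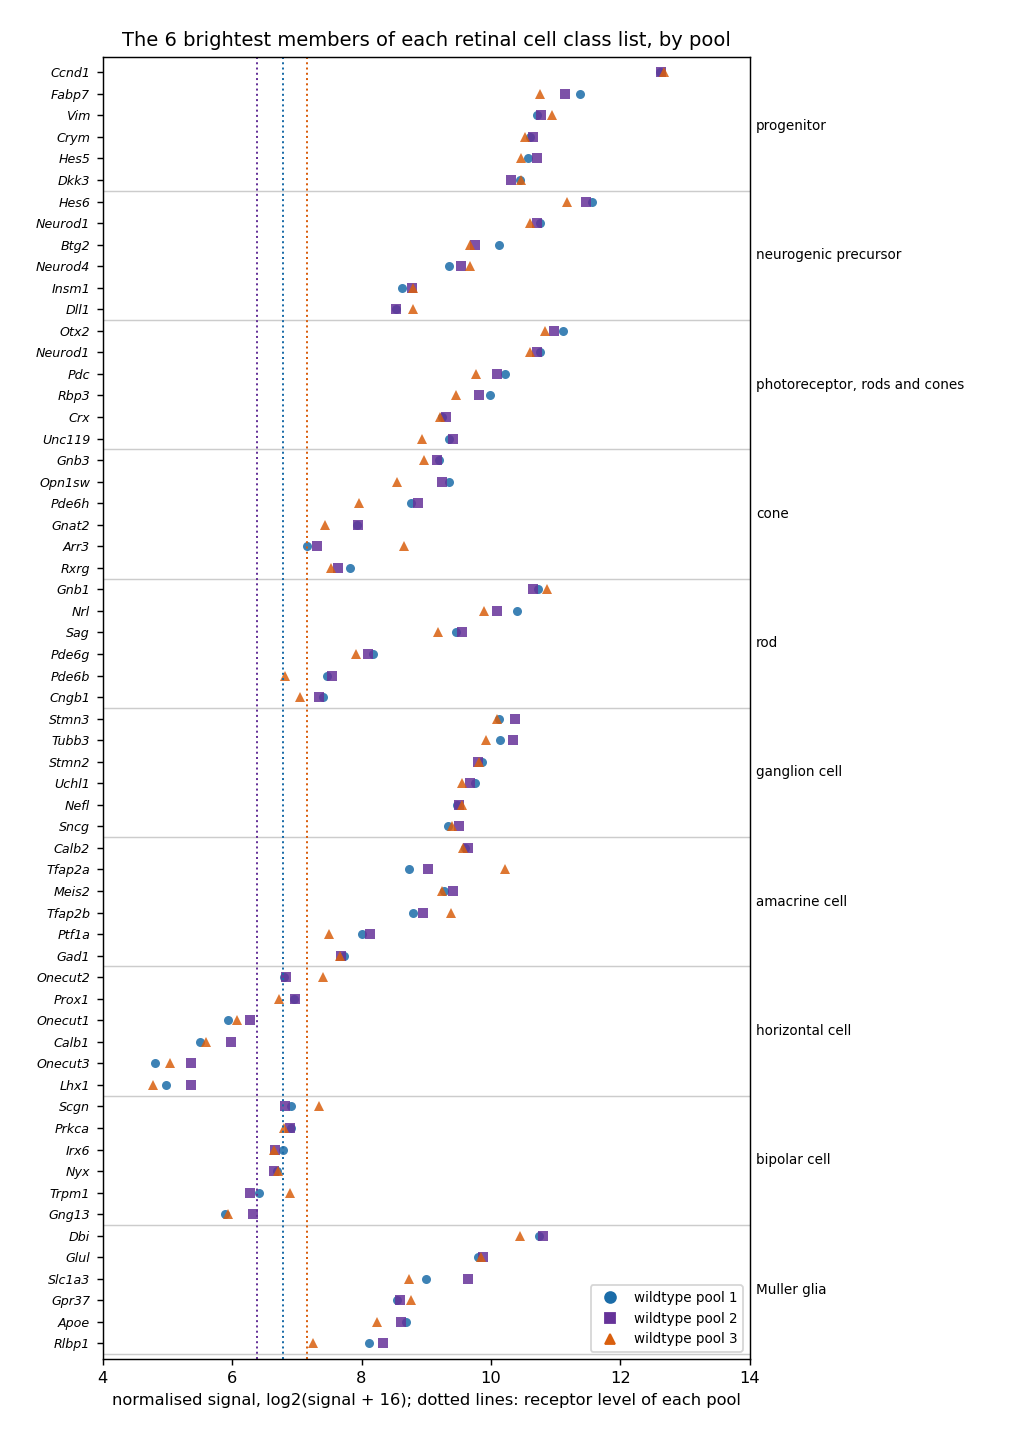
Normalised signal, log2(signal + 16), in wildtype pools 1 (circles), 2 (squares) and 3 (triangles) for the 6 brightest measured genes of each retinal cell class list; dotted lines are the receptor levels of the 3 pools, 6.78, 6.38 and 7.15. Progenitor, precursor and ganglion cell genes shown lie to the right of the lines, and horizontal and bipolar cell genes lie around them or to their left.

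Among the ganglion, cone, amacrine and horizontal cell lists, the ganglion cell list had the highest median, 8.31. It had 17 of 22 genes called. Stmn3, a stathmin of axons, read 1136, 1264 and 1081 array units, Tubb3, the neuronal beta-tubulin, 1148, 1230 and 963, and Nefl, the light neurofilament, 721, 682 and 739. Other young neurons also express several of these, so the order of the lists depends on which genes were listed. More selective members were dimmer: Isl1, a LIM homeobox factor, read 358, 350 and 357, Pou4f1, a POU factor of ganglion cells, 249, 280 and 240, and Rbpms, an RNA-binding protein, 229, 221 and 199. Nefh, the heavy neurofilament of mature axons, was not called at 24.5, 40.8 and 30.5. Pou4f2 had no named probe set here.

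Genes of growing axons had a higher list median than the ganglion list. The lists overlap, as both hold Tubb3, Stmn2, Stmn3, Gap43 and L1cam. In the list of neurite growth and migration 24 of 26 genes were called, with a median of 9.19, from Stmn1 and Basp1, a growth cone protein (4291, 3877 and 4189 array units), to Dpysl2, which promotes microtubule assembly (1826, 1667 and 2580), and Ncam1, an adhesion molecule (1278, 1164 and 1466). Synapse genes were lower, with 13 of 25 called, against 30.5% of all genes, and a median of 7.57. Syt1, the calcium sensor of vesicles, read 758, 689 and 859, Syp, synaptophysin, 837, 807 and 591, and Cplx2, a complexin, 659, 629 and 818. The NMDA receptor subunit gene Grin2b lay at 4.60.

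Amacrine cells, inhibitory interneurons of the inner retina, had 7 of 15 genes called, against 30.5% of all genes, and a median of 7.32. Calb2, calretinin, read 790, 750 and 748 array units and Meis2 read 631, 641 and 581. Tfap2a, an AP-2 factor of amacrine cells, read 424, 492 and 1187 on its selected probe set. Its 2 other probe sets, at means of 8.14 and 7.37, did not show the high value in pool 3. Ptf1a, which commits precursors to the amacrine and horizontal fates, read 248, 257 and 165. The transmitter genes Gad1, Slc6a9, Slc32a1 and Gad2 ranged from 7.70 down to 6.98, and Chat and Th, which mark cholinergic and dopaminergic subtypes, were below the receptor level in every pool at 5.51 and 5.21.

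Photoreceptor genes ranged widely in signal. In the list shared by rods and cones 11 of 14 genes were called, with a median of 8.86. Otx2, which commits precursors to the photoreceptor fate, read 2178, 1962 and 1884 array units, and Crx, the factor it switches on, read 619, 593 and 567. Pdc, phosducin, read 1212, 1033 and 874, and Rbp3, the retinoid-binding protein of the space around outer segments, 1041, 840 and 686. Prph2, which shapes outer segment discs, was below the receptor level in every pool at 41.3, 31.8 and 40.5, and Rcvrn, recoverin, was not called at 137, 128 and 83.2 (limma adjusted p = 0.497).

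In the rod list 4 of 12 genes were called, a share close to the 30.5% among all genes, with a median of 7.17. They were Gnb1, a G protein beta subunit that many other cells express, Nrl, the factor that directs the rod fate (1364, 1044 and 939 array units), Sag, rod arrestin (716, 703 and 553), and Pde6g, a phosphodiesterase subunit (286, 252 and 221). The other 8 genes were not called. Pde6b, a catalytic phosphodiesterase subunit, exceeded the receptor level in pools 1 and 2 but not in pool 3, at 165, 166 and 101. Gnat1, rod transducin, read 6.89, 21.5 and 21.9, Cnga1, a channel subunit, 24.0, 21.3 and 3.34, and Pde6a, the other catalytic phosphodiesterase subunit, 25.6, 35.5 and 26.1. Nr2e3 was not analysed here.

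Cones, which are born earlier, had 7 of 12 genes called, against 30.5% of all genes, and a median of 7.61. Opn1sw, the short-wave opsin, read 664, 576 and 355 array units and stood 2.28 (SE 0.31) above the receptor level on the log2 scale (limma adjusted p = 9.80e-13). Opn1mw, the middle-wave opsin that appears after birth, read 9.73, 1.0 and 4.24, at percentile 4.46. Gnb3, a transducin beta subunit, and Pde6h, a cone phosphodiesterase subunit, were called at 9.11 and 8.54, and Gnat2, cone transducin, at 7.77. Arr3, cone arrestin, was called at 129, 139 and 384, but that rests on 1 probe set whose other 2 lay at 4.87 and 4.74.

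The promoters of Rbp3 and Crx are printed because both hold the letters TAATCC, the core that CRX and OTX2 are known to bind, here as the reverse complement GGATTA in capitals. Rbp3 lies at chr14:33953903-33954007 on the + strand and Crx at chr7:15879951-15880055 on the - strand.
Rbp3: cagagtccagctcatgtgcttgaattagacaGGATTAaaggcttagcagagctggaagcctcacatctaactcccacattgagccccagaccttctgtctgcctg
Crx: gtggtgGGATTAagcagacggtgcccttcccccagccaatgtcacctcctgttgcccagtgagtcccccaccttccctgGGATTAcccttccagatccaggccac

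Over the 200 bases before the start, TAATCC on either strand was in 9 of 28 promoters of rod, cone and shared photoreceptor genes (32.1%), in 4.18% of all promoters and in 9.38% of the receptor genes' promoters.

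The bipolar, horizontal and astrocyte lists had no gene called, against 30.5% among all genes. In the bipolar cell list 0 of 12 genes were called above the receptor level by limma, and 0 also at an unadjusted p under 0.05. By count 1 of them, Scgn, secretagogin, exceeded it in 3 of 3 pools, at 104, 92.5 and 148 array units. Prkca, the protein kinase C of rod bipolar cells, read 105, 98.6 and 99.6, and Cabp5, a calcium-binding protein of mature bipolar cells, 15.0, 17.3 and 15.5. Grm6 had no named probe set here. In the horizontal cell list 0 of 6 were called by limma, with 0 at an unadjusted p under 0.05, and 1, the transcription factor Onecut2, exceeded the receptor level in 3 of 3 pools at 95.6, 93.5 and 154. Prox1 followed at 109, 104 and 93.8, and Lhx1, a factor of horizontal cells, was the dimmest at 14.5, 22.6 and 13.0.

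Müller glia, the radial glia of the retina, share many genes with progenitors. In their list 8 of 13 genes were called, against 30.5% of all genes, with a median of 7.65. Dbi, an acyl-CoA binding protein, read 1697, 1744 and 1387 array units, Glul, glutamine synthetase, 908, 888 and 914, and Slc1a3, a glutamate transporter, 520, 745 and 407. Rlbp1, the retinaldehyde-binding protein, read 272, 297 and 137 and was lowest in pool 3. Genes of mature glia were near the receptor level: Aqp4, a water channel, read 43.6, 69.1 and 87.0 and Kcnj10, a potassium channel, 73.7, 65.7 and 64.8. In the astrocyte list 0 of 4 genes were called by limma, with 0 at an unadjusted p under 0.05, and its brightest, Gfap, read 118, 115 and 84.2.

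As a class, the 70 measured retinal transcription factors had a median of 8.09 at percentile 83.5. Of these 49 were called, 51 exceeded the receptor level in 3 of 3 pools and 25 were in the brightest 10%. Sox4, which promotes neuronal differentiation, was first with 2804, 2489 and 3539 array units, ahead of Hes6, Otx2, Neurod1, Hes5 and Nrl. Rorb, a nuclear receptor of photoreceptors and amacrine cells, read 1024, 1101 and 1177. Factors of the dorsal and ventral retina were both read: Tbx2 and Tbx3, dorsal T-box factors, lay at 8.30 and 8.15 and Vax2, a ventral homeobox factor, at 8.09, whereas dorsal Tbx5 was below the receptor level in all pools at 6.24. Ikzf1, a factor of early progenitors, read 1.95, 1.58 and 7.78.

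Signalling pathways were read unevenly across their members. In the Notch pathway 22 of 34 genes were called. Its receptor Notch1 read 930, 942 and 890 array units, and Rbpj, the DNA-binding partner of cleaved Notch, 328, 281 and 337, while the ligand Jag1 was below the receptor level at 51.4, 28.6 and 51.0. In the Hedgehog pathway 5 of 11 genes were called, against 30.5% of all genes. They were Gas1, a co-receptor (562, 558 and 569), Gli3, Smo, Ptch1 and Cdon. Shh itself, the ligand made by ganglion cells, was near the receptor level at 82.2, 86.3 and 107.

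The Wnt list had 10 of 33 genes called, close to the share among all genes, and a median of 6.55. Ctnnb1, beta-catenin, read 2029, 2175 and 2617 array units, Dkk3, a secreted protein of the Dickkopf family, 1415, 1206 and 1401, and Gsk3b, the kinase that marks beta-catenin for destruction, 803, 621 and 840. In the FGF pathway 8 of 19 genes were called, a somewhat larger share than the 30.5% among all genes. The ligands Fgf9 and Fgf15 led at 8.97 and 8.59, with Fgf13 at 8.49, and Fgf8 was the dimmest at 4.26. The 4 FGF receptor genes lay between 5.99 (Fgfr2) and 6.85 (Fgfr4), near the receptor level or under it. The BMP and TGF-beta list had 14 of 29 called, against 30.5% of all genes. It was led by the receptor gene Bmpr2 (586, 574 and 649), the target Id1 (663, 538 and 426) and Smad4 (553, 491 and 521).

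Imprinted genes had 10 of 16 called, with Nnat, Gnas, the stimulatory G protein locus (2440, 2391 and 2893 array units), and Plagl1, a zinc finger factor (1985, 2129 and 3241), in front and Snrpn last at 1.0, 2.83 and 1.0. Of 22 immediate early genes 7 were called, close to the 30.5% among all genes. Btg2, Nr4a1 and Jun led at 9.85, 8.93 and 8.35, while Egr1 read 43.1, 48.0 and 44.6. Among 4 sex-linked genes Xist, transcribed from the inactive X of females, read 510, 493 and 508, and Eif2s3y, a gene of the Y, read 109, 112 and 93.4 without being called.

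Genes of tissues that border the retina were checked next. Every list in this paragraph had a smaller share called than the 30.5% among all genes. The blood vessel list had 3 of 22 genes called. Kdr, a VEGF receptor, was far above the others at 1028, 984 and 1037 array units, while the endothelial genes Pecam1 and Cdh5 were below the receptor level at 5.32, 3.11 and 9.75 and at 50.0, 32.9 and 48.8. Besides Kdr, Egfl7 and Ramp2 were called, at 7.75 and 7.46. Which cells gave the Kdr signal was not tested. Microglia gave 1 of 17, Csf1r, at 157, 132 and 210. Red cells gave 2 of 10, Hbb-b2 at 279, 237 and 135 and Hba-a2 at 216, 166 and 156, connective tissue 3 of 17, led by Col6a1, Fn1 and Col1a2 at 8.08, 7.85 and 7.54, and skeletal muscle 1 of 16, Acta1, at 8.36. Myelinating glia gave 1 of 6, Cnp, at 588, 608 and 428, with Sox10 and Mbp next at 7.31 and 7.23 and Mog at 4.99.

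From the pigment epithelium 3 of 16 genes were called, a smaller share than the 30.5% among all genes. They were Pmel, a melanosome protein (487, 422 and 366 array units), Ttr, transthyretin (380, 398 and 214), and Dct, a melanin enzyme (197, 220 and 99.7). Rpe65, the isomerase that defines that epithelium, read 13.5, 7.1 and 16.4. The ciliary margin list had 4 of 9 called, a somewhat larger share than among all genes. Gas1 led it at a normalised log2 signal of 9.18. Next came Zic1, a zinc finger factor, with deposited signals of 258, 252 and 233, and Cdon, a Hedgehog co-receptor, with 257, 224 and 243.

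Lens genes had the highest median of these bordering tissues, 7.46. Of 23 measured genes 12 were called, against 30.5% of all genes. By count 8 exceeded the receptor level in 3 of 3 pools, close to the 35.0% among all genes. Cryba1 read 1704, 1516 and 705 array units, Crybb3 1314, 1398 and 504, and Cryaa, alpha-crystallin, 1067, 1109 and 477. Pools 1 and 2 agreed on each and pool 3 was lower. Some crystallins are also made in retinal cells, and the part that lens tissue had in these signals was not tested.

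Agreement between pools was closest for pools 1 and 2. Across all 18193 genes the SD of their log2 difference was 0.30, against 0.44 for pools 1 and 3 and 0.50 for pools 2 and 3. As a description across genes, which are not independent replicates, Pearson's r was 0.980, 0.958 and 0.947 and Spearman's rank correlation 0.979, 0.952 and 0.939 in that order. Of the 100 brightest genes of each pool, 95 were shared by pools 1 and 2, 84 by pools 1 and 3 and 83 by pools 2 and 3. Whether pools 1 and 2 shared tissue or were handled apart from pool 3 is not stated in the labels.

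The SD of a gene over the 3 pools had a median of 0.21 on the log2 scale, and 0.17 among the 6371 genes above the receptor level in 3 of 3 pools. With the genes ordered by signal and split into 10 equal groups, it was smallest, 0.13, in the brightest group and largest, 0.27, in group 9. In the dimmest group it was 0.19, where the floor and the added 16 units compress differences.

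Of the 6371 genes, 308 (4.83%) differed by over 2-fold between their highest and lowest pool, and 285 of these were highest in pool 3. The filter tilts this direction, because the receptor level to be exceeded was 7.15 in pool 3 against 6.78 and 6.38 in pools 1 and 2. Genes low in pool 3 were thus more readily left out: of 16 lens genes over 2-fold apart, 8 passed. Keeping the probe set with the highest mean also favours sets with a high value in a single pool. The 20 genes with the widest range held 18 that were highest in pool 3 and 2 crystallins, Crygd and Crybb1, that were lowest there. Ntmt1, a methyltransferase, read 244, 66.4 and 576 array units, Mtm1, a lipid phosphatase, 254, 115 and 910, and Csnk1d, a casein kinase, 442, 413 and 2119. The remaining 15 were Adam4, Rusc1, Fbxo36, Sec14l3, Csdc2, Bcor, Gnao1, Lrig1, Tma16, Hnrnpab, Sprr2k, Scrn3, Tub, Pik3r6 and Adar, with ranges from 2.17 down to 1.78.

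Most of these differences were not matched in pool 3 by other probe sets of the same gene. Of the 308 genes, 218 had a second probe set. Other probe sets were judged on pool 3 minus the mean of pools 1 and 2, a stricter measure than the range that picked the genes. In 10 of the 218 such a set differed by more than 1 on the log2 scale in the direction of the selected set. Limited to other probe sets brighter than the receptor level, it was 5 of 110. For Csnk1d the other 4 probe sets changed between -0.66 and -0.12 in pool 3 relative to the mean of pools 1 and 2, where the selected set gave 2.25. For Hnrnpab the other 6 lay between -0.59 and 0.14 against 1.64. The bacterial spike BioB read 605, 609 and 809 and the B2 repeat probe set 6807, 7713 and 11098 in pools 1, 2 and 3. The B1 repeat probe set went the other way in pool 3, at 9690, 9128 and 6670. The ratio of 3′ to 5′ actin signal, a gauge of RNA integrity, was 1.70, 2.22 and 1.72. The part of these in the differences of pool 3 was not tested.

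**Figure D4:**
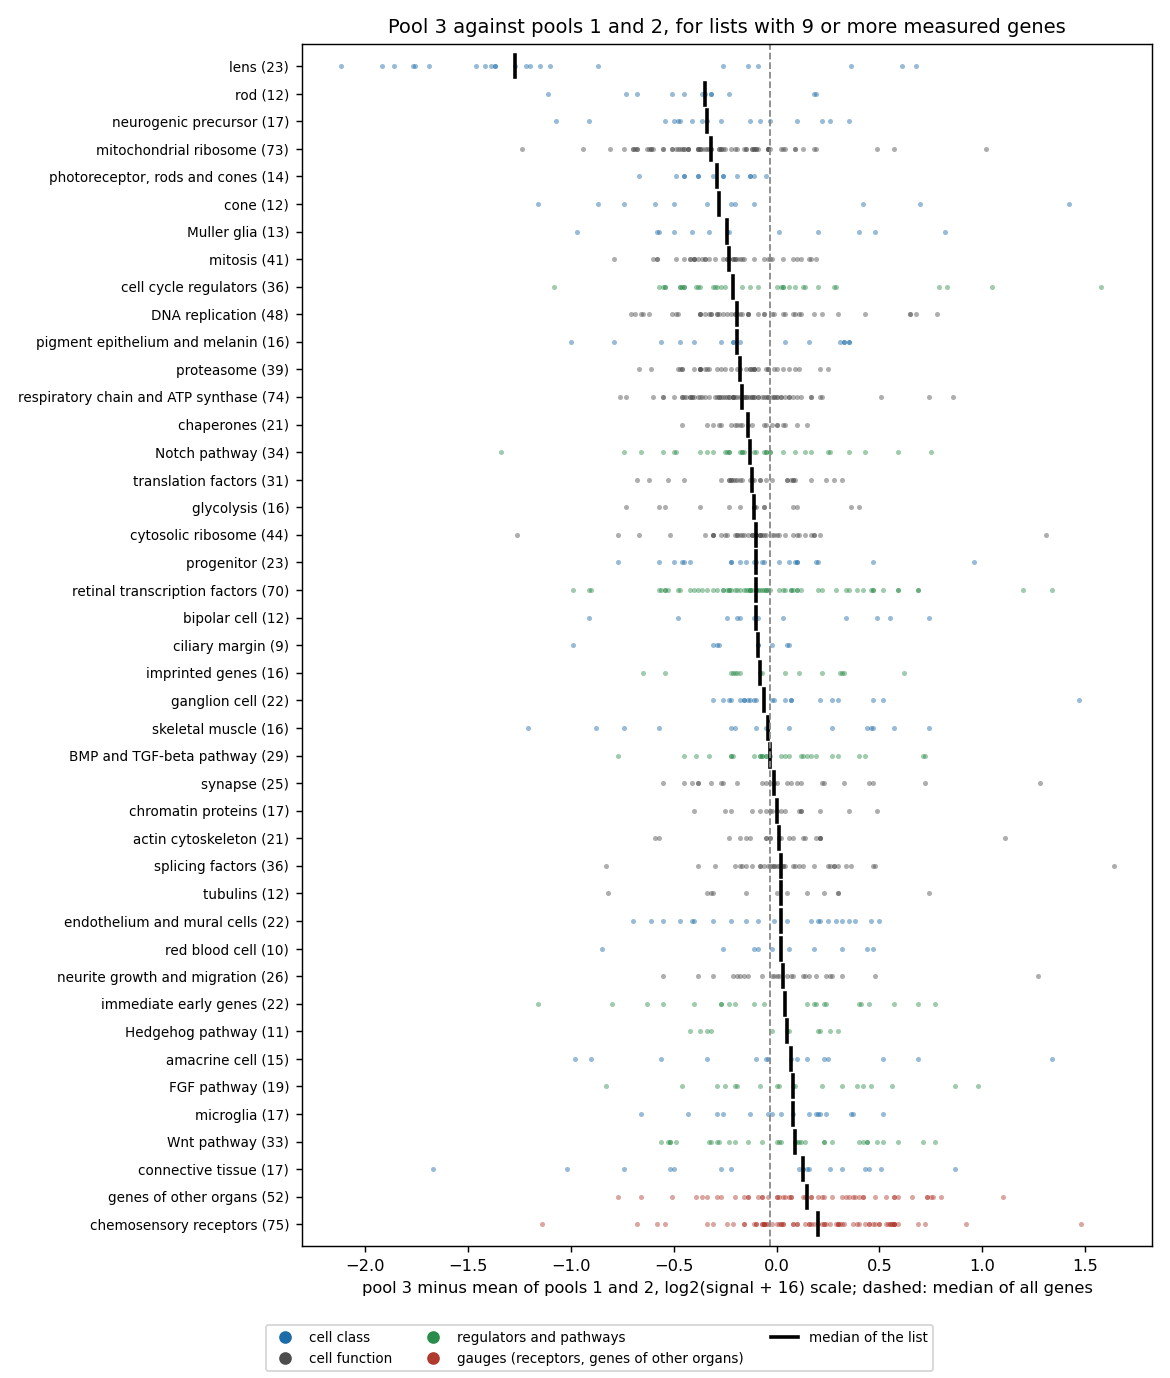
Pool 3 minus the mean of pools 1 and 2 on the log2(signal + 16) scale for every gene of the lists with 9 or more measured genes, ordered by list median (black bars; dashed line, median of all genes, -0.03). The lens list stands apart at -1.27, and the list medians next to it, for rod, neurogenic precursor and mitochondrial ribosome genes, lie between -0.35 and -0.32.

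Some lists moved together in pool 3. Pool 3 was the lowest for 43.3% of all genes and the highest for 37.8%, or 7886 and 6875 of 18193, and this order depends on the scaling. With the values as deposited it was the lowest for 6708 and the highest for 8138, and with arrays brought to one median 9876 and 5272. It was the lowest for 20 of 23 lens genes, with a median difference of -1.27 from the mean of pools 1 and 2, and 16 of the 23 differed by over 2-fold between pools, against 6.07% of all genes. It was also the lowest for 13 of 14 genes shared by rods and cones (median -0.29), 10 of 12 rod genes (-0.35), 57 of 73 mitochondrial ribosome genes (-0.32), 32 of 41 mitotic genes (-0.23) and 50 of 74 respiratory chain genes (-0.17). The receptor genes were the reverse, highest in pool 3 for 43 of 75. The signs of these list medians were kept with the values as deposited and with arrays brought to one median, which moved the median of all genes from -0.03 to 0.04 and -0.15. With 1 pool on one side these are differences between libraries and carry no test. Small median differences such as 0.03 for neurite growth and 0.02 for splicing factors turned to -0.24 and -0.23 when arrays were brought to one median.

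Bright and dim genes differed in promoter sequence. Over the 250 bases before the start, the ratio of observed to expected CpG had a median of 0.80 in the brightest 10% of the 14368 genes with a promoter in the table and 0.26 in the dimmest 10%, with 0.63 over all. GC content had medians of 60.8% and 50.4% in the same groups. The letters GGGCGG on either strand, the core of the GC box that SP1 binds, were in 60.5% of promoters of the brightest group, 23.2% of the dimmest and 47.9% of all. TATAAA between 40 and 20 bases before the start was at 1.67%, 6.26% and 2.55%, and was lowest not in the brightest group but in groups 2 to 5, at 0.696% to 1.18%. The 100 brightest genes did not continue either order, with GGGCGG in 45 and TATAAA in 5 of 100 promoters. Lists of specialised cells departed from this order: the median CpG ratio was 0.23 for rod, cone and shared photoreceptor genes and 0.20 for lens genes, against 0.85 for the cytosolic ribosome and 0.10 for the receptor genes.

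**Figure D5:**
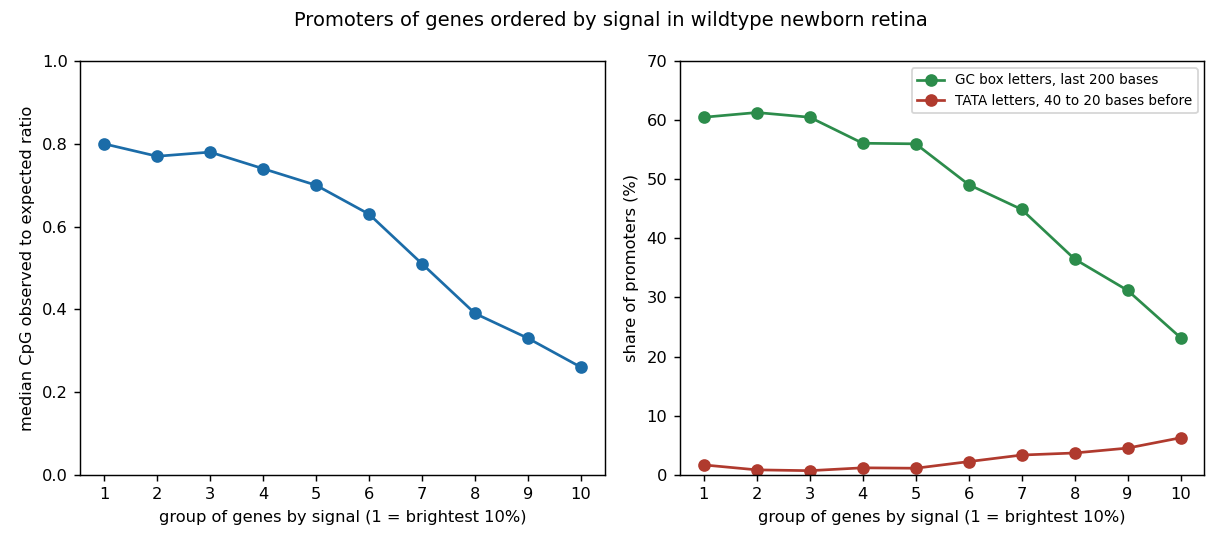
Promoters of 14368 genes in 10 equal groups by signal (1 is the brightest): left, median ratio of observed to expected CpG; right, percent of promoters with GGGCGG in the last 200 bases or TATAAA 40 to 20 bases before the start. The CpG ratio falls from 0.80 to 0.26 and the GGGCGG share from 60.5% to 23.2%, while the TATAAA share is 1.67% in group 1, lowest in group 3 at 0.696% and highest in group 10 at 6.26%.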

How the data were processed

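Labelled RNA of 3 wildtype pools was read on single-colour Affymetrix arrays, and the intensity values used here are those the authors deposited, 1 per probe set and sample. Which program summarised the probes, and with what scaling, is not given in the sources used here. Medians of 42.6, 40.6 and 50.5 over probe sets show that the arrays were not brought to one median. Of 45101 probe sets, 64 controls were left out, 932 carried several gene symbols and were not named, and 34945 carried 1, of which 34741 were matched by Entrez identifier to RefSeq names.

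Intensities were quantile normalised over the 3 arrays, floored at 1 and taken as log2(value + 16). Each gene kept its brightest probe set. Levels were tested against the receptor level with limma 3.58.1 (lmFit, eBayes with an intensity trend) in R 4.3.3, two-sided, with Benjamini-Hochberg adjustment over all genes. The fit was tested on simulated data. Named genes are the 30 brightest, list members with at least the 3 brightest of each list, the 20 with the widest range, Ccnd1 and the 10 brightest in no list. Members and lists were chosen with earlier results of these data known. Alternatives were other scalings, pseudocounts, probe set choices, yardsticks, a filter on dim genes, no trend and leaving out each pool. The number of arrays limits the precision, and the 3 cyclin D1 -/- arrays served only for the label check and for one scaling.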

Additional observations from a re-analysis of the deposited data

How the results depend on the processing

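No paired analysis was possible because no groups were compared. The count of genes called above the receptor level was 5541, and it was 3564 with the mean over a gene's probe sets in place of the brightest one. Leaving out 1 pool gave 2693 to 6039, the lowest without pool 1, and over all settings the count ran from 2693 to 7443. Genes above the receptor level in 3 of 3 pools numbered 6371, with a range of 4280 to 8294 over settings. The 8294 came without pool 3, where only pools 1 and 2 had to exceed the level. With every pool kept the highest count was 7891, at the 90th percentile of the receptor genes. All 30 brightest genes stayed among the first 30 under every setting except 2: 24 did without probe sets named _x_at or _s_at and 16 with the mean over probe sets. Of the genes over 2-fold apart between pools, 308, there were 148 with a pseudocount of 64, 100 with the mean over probe sets, 204 with the genes of other organs as yardstick and 201 with pools 1 and 2 averaged, a setting chosen after seeing the data. Leaving out 1 pool gave 10 to 278, and it was 10 without pool 3 and 164 without pool 2. The SD of log2 differences between pools 1 and 2, 1 and 3, and 2 and 3 was 0.59, 0.68 and 0.75 with a pseudocount of 1, and 0.17, 0.30 and 0.34 with 64, in the order found with 16. Of 45 lists, 32 had a median above the receptor level, with a range of 27 to 43 over settings. The 43 came with the lowest 40% of genes left out, which drops dim members and so raises list medians. With that setting aside, the median percentile moved most for the ciliary margin, from 36.9 to 65.2, and for imprinted genes, from 65.3 to 89.4. For the cytosolic ribosome it stayed between 99.7 and 99.8. Beyond what the settings themselves construct, the causes were not tested. Signal near the receptor level cannot be told from cross-hybridisation, so dim genes are bounds at best.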
